A study of Mus musculus with 23 samples.

Results

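Angiotensin II (AngII) was compared with vehicle in the abdominal aorta and in mesenteric arteries of mice, and the question addressed was which genes responded differently in the 2 vessels. Of the 23 arrays in the series, 17 belonged to this comparison: the abdominal aorta had 3 AngII and 3 Sham arrays, and mesenteric arteries had 6 and 5. All animals were male C57BL/6J mice 12 weeks old, a common inbred laboratory strain. AngII was given at 490 ng/kg/min through subcutaneous osmotic minipumps for 14 days, and Sham mice received the vehicle. Each array carried RNA pooled from 2 vessels of the same kind and treatment, and the mesenteric samples were smaller branches of the superior mesenteric artery. The pools hold more vessels than the study had mice, so pools of different vessels share animals. Which pools share them was not given in the sources used here, and the fit treats all arrays as independent, so p-values measure the spread between these pools and leave that sharing out.

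For each transcript the AngII effect is the difference in log2 signal between AngII and Sham arrays of one vessel. The difference of the effects is the abdominal effect minus the mesenteric effect, so a positive value means that the effect was more positive in the abdominal aorta. It was tested as an interaction in a limma fit of 6 group means over all 23 arrays, with Benjamini-Hochberg adjustment over the 20585 transcripts tested, and values with an adjusted p under 0.05 are said to have passed. Signals are log2 intensities, so a step of 1 is a doubling.

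AngII is the effector peptide of the renin-angiotensin system. Through its type 1 receptor it contracts vascular smooth muscle and raises blood pressure, and sustained infusion in mice is known for smooth muscle growth, entry of macrophages and other leukocytes into the adventitia, and deposition of collagen. The aorta is an elastic conduit artery, whereas small mesenteric arteries are muscular vessels that set peripheral resistance. Thy1, a glycoprotein anchored at the cell surface, is carried by adventitial fibroblasts, T cells and neurons.

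The arrays gave 17432 to 18657 detected transcripts each. Smooth muscle markers varied in level. Acta2, the actin of smooth muscle, was high, between 14.17 and 14.45 on all 17 arrays. Cnn1, another of these markers, was low. Its median was 6.65 for abdominal AngII, 6.68 for abdominal Sham, 5.89 for mesenteric AngII and 5.6 for mesenteric Sham. Hoxc10, a homeobox gene of posterior body regions, lay between 8.67 and 9.58 on the abdominal arrays and at 6.15 or lower on the mesenteric arrays. Some arrays stood apart by transcripts of other tissues, and column codes name them here (B for abdominal, M for mesenteric, A for AngII, K for Sham). Try4, a pancreatic trypsin, reached 14.04 on MA1, 12.37 on MA2 and 14.01 on MK1, against 7.91 or lower on the other mesenteric arrays. Acta1, the actin of skeletal muscle, was at 11.19 on BK1 against 5.18 or lower on the other abdominal arrays. Every mesenteric array detected it, between 8.02 and 9.14 with AngII and between 7.42 and 7.95 for Sham. Ucp1, the uncoupling protein of brown fat, was at 10.67 on BA1, 9.28 on BA3 and 4.36 on BA7, against 4.29, 6.32 and 5.92 on the Sham arrays, and was not detected on any mesenteric array.

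The difference passed for 380 transcripts, 1.85% of those tested. It was positive for 272 (1.32% of those tested) and negative for 108 (0.525%), and 3120 had an unadjusted p under 0.05. These transcripts held 248 named genes, 190 with a positive and 58 with a negative difference. The smallest positive value that passed was 0.34 and the smallest negative one -0.39. In the log2 values that the authors normalized themselves, 142 passed and the share with a positive sign was 61.3% in place of 71.6%. The count was 77 without BA1, 190 without BA3, 101 without BK1 and 740 without BA7, and it lay between 273 and 382 without any other of the 17 arrays. It was 57 without the 4 arrays rich in pancreatic or skeletal muscle transcripts, a setting added after seeing the data. Of the 62 genes named below whose difference passed, 23 passed without each of the 17 arrays in turn, and 25 passed without BA1, 39 without BA3, 59 without BA7 and 27 without BK1. Of the 62, 35 passed in the values normalized by the authors, 29 with the brown adipocyte covariate, 18 without the 4 arrays rich in other tissues and 1 with the macrophage covariate, which are described below.

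In the abdominal aorta 678 transcripts rose (3.29%) and 301 fell (1.46%), whereas in mesenteric arteries 293 rose (1.42%) and 98 fell (0.476%). This order depended on the normalization, since in the values normalized by the authors 385 transcripts passed in the abdominal aorta and 958 in mesenteric arteries. Of the 272 transcripts with a positive difference, 240 rose in the abdominal aorta, 3 also rose in mesenteric arteries and 7 fell there. Their median effect was 0.80 in the abdominal aorta and -0.06 in mesenteric arteries. Of the 108 with a negative difference, 52 fell in the abdominal aorta and 33 rose in mesenteric arteries, 2 of them passing both tests, and the median effects were -0.40 and 0.24. Neither single effect passed for 25 of the positive and 25 of the negative transcripts. No mesenteric array detected 14 of the positive and 9 of the negative transcripts, so their mesenteric effect was not measurable. No abdominal Sham array detected 40 of the positive transcripts. The last transcript inside the threshold was that of Napsa, a protease gene, with an adjusted p of 0.0497, and the first outside had 0.0501.

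**Figure D1:**
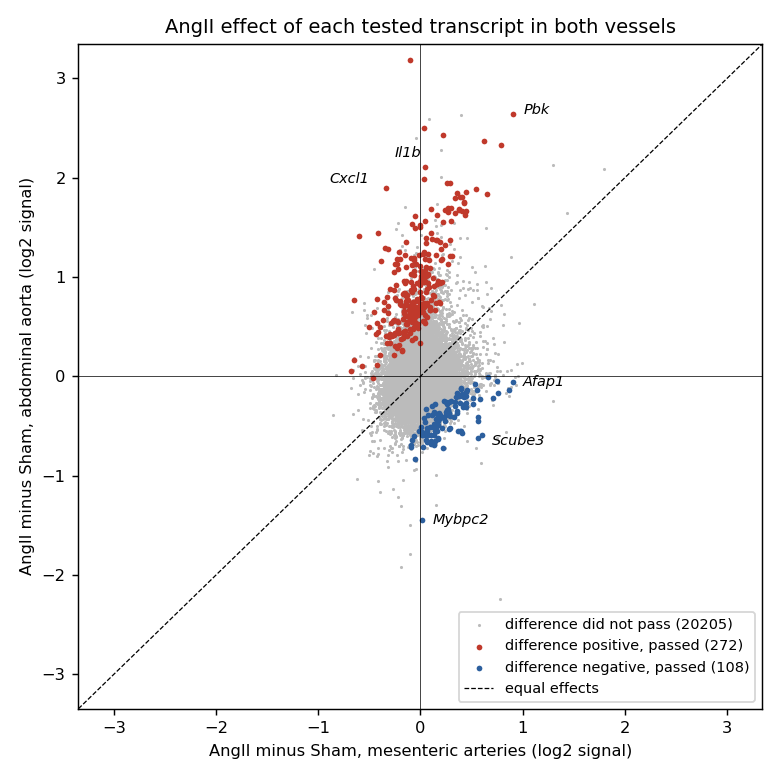
AngII minus Sham in log2 signal in mesenteric arteries (x axis) and abdominal aorta (y axis), 1 point per tested transcript; the dashed line marks equal effects. The 272 transcripts with a positive difference lie mainly above zero on the y axis and near zero on the x axis, and the 108 with a negative difference lie to the lower right.

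The thoracic arrays took no part in this contrast. In the thoracic aorta 1472 transcripts rose (7.15%) and 1479 fell (7.18%). Of the 272 transcripts with a positive difference between the other 2 vessels, 200 rose in the thoracic aorta, or 73.5%, and 1 fell. Of the 108 with a negative difference, 55 fell there, or 50.9%, and none rose. Median thoracic effects were 0.72 and -0.34. The thoracic arrays shared the normalization and the estimate of spread with the others, and their pools share mice with those of the other vessels, so these counts do not come from separate animals.

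In the values normalized here, genes of mitosis and cytokinesis had the largest median difference among the lists with at least 10 measured genes. Of 48 listed genes, 24 met the filter of detection on 3 or more arrays and were measured. The arrays of 1 group alone can meet that filter. Genes near background elsewhere may thus have entered the list through the group where they are high. A positive difference passed for 16 of the 24 measured genes and a negative one for none, against 1.32% of all transcripts with a positive difference. The median difference was 1.07, whereas over all transcripts it was -0.02. In the abdominal aorta 21 of the 24 rose, with a median effect of 1.37, and in mesenteric arteries 3 rose, with a median of 0.29. Over all transcripts 3.29% and 1.42% rose in these vessels. The mean log2 level of the list was between 6.50 and 7.17 on the 3 abdominal AngII arrays and between 5.58 and 5.60 on the Sham arrays. In mesenteric arteries these ranges were 5.95 to 6.56 and 5.72 to 5.94. In the thoracic aorta 19 of the 24 rose, with a median effect of 0.90. The count of 16 became 7 without BA1, 10 without BK1, 20 without BA7 and 4 without the 4 arrays rich in other tissues, and the median difference was then 1.04, 1.08, 1.25 and 1.04. In the values normalized by the authors 3 passed, and the median difference was 0.23. It was then below the medians of the macrophage (0.60), collagen (0.415) and chemokine (0.35) lists. When only transcripts detected on every array were tested, 9 of the mitotic genes were measured and 4 passed.

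Promoters of the 3 mitotic genes with the smallest adjusted p are shown, since many genes of this phase share the cell cycle genes homology region (CHR), searched here as TTTGAA or TTCGAA, and the CCAAT box. They are RefSeq sequences of build GRCm38.p6 from 250 bases before to 50 after the start site, on the strand of the gene, and capitals mark both motifs on either strand. Cenpa lies at chr5:30666636-30666935 on the plus strand, Kif23 at chr9:61946750-61947049 on the minus strand and Prc1 at chr7:80294201-80294500 on the plus strand.
Cenpa: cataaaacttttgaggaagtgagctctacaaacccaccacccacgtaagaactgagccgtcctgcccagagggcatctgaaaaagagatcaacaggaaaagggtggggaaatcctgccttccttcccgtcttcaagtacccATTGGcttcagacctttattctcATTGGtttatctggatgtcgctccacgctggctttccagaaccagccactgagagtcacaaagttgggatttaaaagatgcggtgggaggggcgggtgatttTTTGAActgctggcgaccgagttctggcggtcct
Kif23: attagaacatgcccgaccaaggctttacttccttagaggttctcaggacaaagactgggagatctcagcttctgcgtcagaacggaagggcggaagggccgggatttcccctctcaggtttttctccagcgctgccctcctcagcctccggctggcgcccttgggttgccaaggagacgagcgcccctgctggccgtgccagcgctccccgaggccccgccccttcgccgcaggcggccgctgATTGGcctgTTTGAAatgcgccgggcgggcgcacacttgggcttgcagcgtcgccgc
Prc1: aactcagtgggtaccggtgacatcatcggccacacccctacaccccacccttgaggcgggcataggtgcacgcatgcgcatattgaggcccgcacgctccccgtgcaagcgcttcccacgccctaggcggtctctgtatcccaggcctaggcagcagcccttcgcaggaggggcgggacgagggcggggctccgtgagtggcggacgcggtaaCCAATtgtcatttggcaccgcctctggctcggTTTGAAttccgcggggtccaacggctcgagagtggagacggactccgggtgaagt

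A promoter was found for 14 of the 16 mitotic genes that passed. CHR letters occurred in a promoter of 12 of them and CCAAT letters in 12, whereas over the 27025 genes in the table the shares were 21.7% and 41.1%. Nusap1 and Birc5 held neither in this window. These matches describe the letters only.

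Cenpa encodes the histone variant that marks centromeres. Its log2 signal was 9.42, 9.38 and 8.67 on the abdominal AngII arrays and 7.57, 7.55 and 7.70 on the Sham arrays, so the groups were apart. On the mesenteric AngII arrays it ran from 9.07 to 9.52 with a median of 9.36, and the Sham arrays had 8.96, 9.02, 9.14, 9.18 and 9.24, which overlapped. Cenpa rose in the abdominal aorta by 1.55 ± 0.15 (SE), a 2.93-fold change, and the mesenteric effect was 0.22 ± 0.11. The difference was 1.33 ± 0.19 (adjusted p = 0.00167), and the abdominal AngII level was close to that of mesenteric Sham arrays.

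Kif23, a kinesin of the central spindle, gave 12.20, 12.29 and 12.16 on abdominal AngII arrays against 11.16, 11.09 and 10.76 on Sham arrays. Mesenteric AngII arrays had 10.83 to 11.11, with a median of 10.98, against 10.47, 10.72, 10.72, 10.73 and 10.79. Here AngII and Sham arrays were apart in both vessels, with a wider gap in the abdominal aorta. The difference was 0.93 ± 0.14 (adjusted p = 0.00224), and it passed for all 3 probes of the gene, with values up to 1.69.

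Prc1, which bundles microtubules of the central spindle, gave 8.82, 8.80 and 8.04 against 6.17, 6.35 and 6.02 in the abdominal aorta. In mesenteric arteries the AngII arrays ran from 7.18 to 8.19, with a median of 7.34, against 6.59, 6.82, 6.83, 6.98 and 7.14. Prc1 rose 5.18-fold in the abdominal aorta (adjusted p = 2.96e-06) and 1.54-fold in mesenteric arteries (adjusted p = 0.0497), and the difference was 1.75 ± 0.28 (adjusted p = 0.00228). Pbk, a mitotic kinase, likewise rose in both vessels, by 2.64 and 0.91, with a difference of 1.74 (adjusted p = 0.0120) that no longer passed without BA1 (0.0606) or BK1 (0.0532). Cdk1, the kinase that drives entry into mitosis, was not detected on the abdominal Sham arrays (4.47 to 4.55) and read 6.59, 7.02 and 5.78 on the AngII arrays, at least 2.71-fold higher. The bound sets a group that was not detected at the lowest detected signal of each array. The difference for Cdk1 was 1.67 (adjusted p = 0.00496).

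Among 27 genes of DNA replication and nucleotide supply the difference passed for 2, both positive, with a list median of 0.26. Among all transcripts 1.32% had a positive difference that passed. Uhrf1, which recruits the maintenance DNA methyltransferase, had a difference of 1.53 (adjusted p = 0.00464), and Tk1, a thymidine kinase of S phase, had 1.16 (adjusted p = 0.0245), which did not pass without BA1, BA3, BK1 or BK7 (0.0577 to 0.112). Another Tk1 probe gave 0.42 (adjusted p = 0.265).

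**Figure D2:**
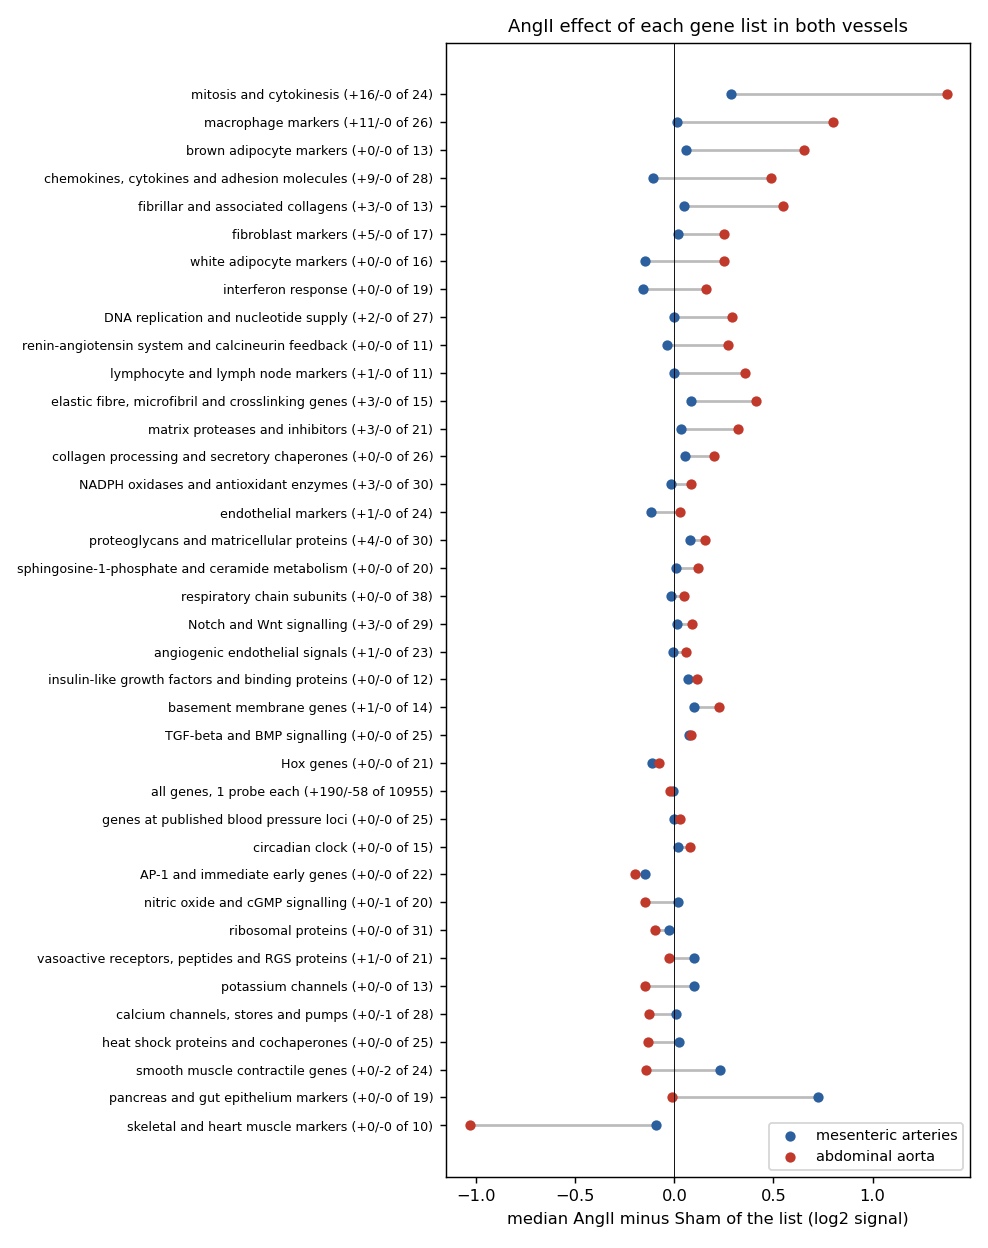
Median AngII effect in log2 signal of each gene list with at least 10 measured genes, in mesenteric arteries (blue) and abdominal aorta (red); the counts give genes whose difference passed with a positive and a negative sign, of those measured. The mitosis list reaches 1.37 in the abdominal aorta and 0.29 in mesenteric arteries, and the contractile list lies at -0.14 and 0.23.

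Among chemokines, cytokines and adhesion molecules a positive difference passed for 9 of 28 measured genes and a negative one for none, with a median of 0.66. Over all transcripts 1.32% had a positive difference that passed. In the abdominal aorta 7 rose and none fell, whereas in mesenteric arteries none rose and 1 fell. Among all transcripts 3.29% rose in the abdominal aorta and 0.476% fell in mesenteric arteries. Macrophage markers moved with the chemokine list: the difference passed for 11 of 26, all positive, against the same 1.32%. All 26 values were above 0, with a median of 0.82, and Csf1r counts among those that passed in both lists. The difference was above 0 for 9614 of all 20585 transcripts. The mean log2 level of the macrophage list was 9.63, 9.18 and 9.0 on the abdominal AngII arrays against 8.41, 8.34 and 8.69 on Sham arrays, and 9.19 to 9.50 against 9.33 to 9.47 in mesenteric arteries. In bulk vessel RNA, a change in the number of cells of a type and a change in RNA per cell cannot be told apart. The chemokine count was 2 without BA1, 3 without BA3, 2 without BK1 and 13 without BA7, and the macrophage count was 1, 5, 2 and 13. Without BK2 these counts were 6 and 5, and without MA2, MA6, MK3 or MK4 the macrophage count was 7. In the values normalized by the authors they were 4 and 5, and without the 4 arrays rich in other tissues both were 1.

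Cxcl1, a neutrophil-attracting chemokine, read 8.38, 9.18 and 6.87 on abdominal AngII arrays and 5.97, 6.52 and 6.26 on Sham arrays, so all AngII arrays were above all Sham arrays, BA7 by the least. On mesenteric AngII arrays it ran from 6.14 to 7.06, with a median of 6.61, and Sham arrays gave 6.64, 6.70, 6.86, 7.21 and 7.27. Cxcl1 rose 3.71-fold in the abdominal aorta (adjusted p = 0.00263), and the difference was 2.23 ± 0.44 (adjusted p = 0.0118). It no longer passed without BA1 (adjusted p = 0.0550) or BK1 (0.0513).

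Il1b, the gene of interleukin 1 beta, read 7.67, 7.31 and 5.52 on abdominal AngII arrays against 4.60, 4.36 and 5.23 on Sham arrays. It was not detected on any mesenteric array, where it lay between 4.51 and 4.91, so its mesenteric effect was not measurable. The difference was 2.06 ± 0.43 (adjusted p = 0.0153), and it no longer passed without BA1 (0.0777), BA3 (0.0548) or BK1 (0.0558). Ccl7, a monocyte-attracting chemokine, read 8.32, 7.66 and 5.99 against 5.74, 5.66 and 6.33 in the abdominal aorta, where the groups overlapped and the single effect of 1.42 had an adjusted p of 0.0504. Its difference of 2.02 passed (adjusted p = 0.0447), but not in 13 of the 17 fits that left out 1 array (adjusted p from 0.0521 to 0.189).

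Ccl5, a chemokine of T cells and monocytes, was more even: 6.81, 6.58 and 6.46 on abdominal AngII arrays against 4.61, 5.24 and 5.15 on Sham arrays. Mesenteric AngII arrays ran from 5.75 to 6.74, with a median of 6.56, against 6.34, 6.40, 6.42, 6.44 and 6.56, and thus overlapped. The difference was 1.67 (adjusted p = 0.00224). Ccl9, a macrophage chemokine, had a difference of 1.61 (adjusted p = 0.00174). Cx3cl1, the membrane-bound chemokine fractalkine, was the chemokine that fell in mesenteric arteries: AngII arrays ran from 8.52 to 8.98 and Sham arrays from 9.05 to 9.56, an effect of -0.44 (adjusted p = 0.0268). Its abdominal effect was 0.42 (adjusted p = 0.0734), and the difference was 0.86 (adjusted p = 0.0104).

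Of the macrophage markers, the folate receptor gene Folr2 had a difference of 0.95 (adjusted p = 0.00577), the Fc receptor gene Fcgr3 had 1.09, the complement gene C1qb had 1.06 and the lysozyme gene Lyz2 had 0.99. All 4 rose in the abdominal aorta, by 0.82 to 1.07, and their mesenteric effects lay between -0.15 and 0.00. The difference of Fcgr3 did not pass without BA1 (0.0550), that of C1qb without BA1 (0.0710) or BK1 (0.0558), and that of Lyz2 without BA1 (0.0674) or BK1 (0.0558). The clone-named gene AA467197 read 7.44, 7.56 and 6.35 against 4.34, 4.45 and 5.07 in the abdominal aorta and overlapped in mesenteric arteries. Its difference of 2.46 (adjusted p = 0.00224) rested on abdominal Sham arrays near background, of which 1 of 3 detected it. Wfdc17, a small secreted protein of the whey acidic protein family, had 1.86, which did not pass without BA1 (0.0920) or BK1 (0.0685), and S100a4, a calcium-binding protein of fibroblasts and leukocytes, had 1.55. Of 19 interferon response genes none passed, against 1.85% of all transcripts, and 16 of the 19 values were positive. Among all 20585 transcripts the difference was positive for 9614.

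**Figure D3:**
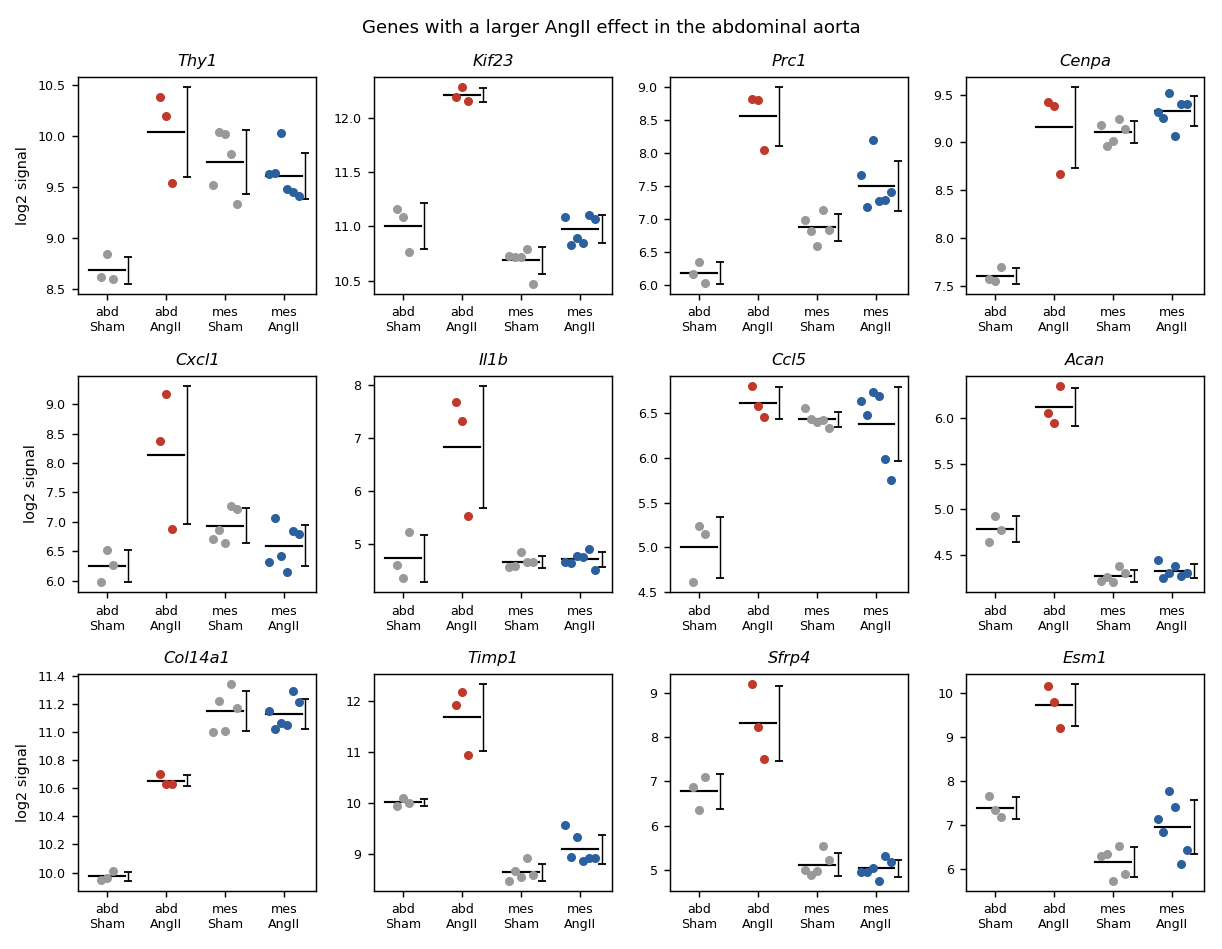
Log2 signal of 12 genes with a positive difference on every abdominal (abd) and mesenteric (mes) array; each point is 1 array, horizontal lines are group means and bars are 1 SD, and the y axes differ. For Thy1 the 3 abdominal AngII arrays (9.54 to 10.38) lie above the Sham arrays, while the mesenteric groups overlap.

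Thy1 read 10.38, 10.19 and 9.54 on the abdominal AngII arrays and 8.62, 8.84 and 8.60 on the Sham arrays. On the mesenteric AngII arrays it ran from 9.41 to 10.03, with a median of 9.56, and the Sham arrays gave 9.33, 9.52, 9.82, 10.02 and 10.04. The abdominal groups were therefore apart and the mesenteric groups overlapped. Thy1 rose 2.55-fold in the abdominal aorta (adjusted p = 0.000232), its mesenteric effect was -0.14 ± 0.15, and the difference was 1.49 ± 0.25 (adjusted p = 0.00387). In the thoracic aorta it rose by 0.85 (adjusted p = 0.00529). The difference passed without each of the 17 arrays in turn.

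Of 17 fibroblast markers 5 had a positive difference that passed and none a negative one, against 1.32% of all transcripts with a positive difference, with a median of 0.40. The count was 3 without BA1 or BK1 and 2 without the 4 arrays rich in other tissues, and in the values normalized by the authors it was 4 with a median of 0.17. Besides Thy1 these were Col14a1, Cd248, Mfap5 and Pi16. Col14a1 also counts in the collagen list below, and Mfap5 in the elastic fibre list. Cd248, a surface protein of fibroblasts and pericytes, had a difference of 0.68 (adjusted p = 0.00813). T cells also carry Thy1, and among 11 lymphocyte and lymph node markers the difference passed for 1, Pdpn, the podoplanin gene of lymphatic endothelium and fibroblasts (0.81, adjusted p = 0.0344), and this did not pass in 7 of the 17 fits that left out 1 array (0.0544 to 0.130). The list's median difference was 0.22. Its abdominal effect was positive for 10 of the 11 genes, with a median of 0.354, and its mesenteric effect for 5, with a median of -0.001. Over all 20585 transcripts these effects were positive for 9375 and 10036, and 1.32% had a positive difference that passed. The mean log2 level of the list ran from 6.432 to 6.996 in the abdominal AngII group and from 6.356 to 6.416 in the Sham group. The part of T cells in the Thy1 result was not tested.

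Matrix genes differed in a minority of each list, and each that passed was positive, against 1.32% of all transcripts with a positive difference. Among fibrillar and associated collagens 3 of 13 passed (median difference 0.44), among elastic fibre genes 3 of 15 (0.18), among proteoglycans and matricellular proteins 4 of 30 (0.11), among proteases and inhibitors 3 of 21 (0.18) and among basement membrane genes 1 of 14 (0.02). None of 26 genes of collagen processing passed. The elastic fibre count was 0 without BK1 and 1 without BA1, and the protease count was 1 without BA1, BA3, BK1 or BK7. Without the 4 arrays rich in other tissues these counts were 0 and 1, and the proteoglycan count was 1, as it was in the values normalized by the authors. Of the 13 collagens 7 rose in the abdominal aorta and none in mesenteric arteries, against 3.29% and 1.42% of all transcripts.

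Acan, the gene of the proteoglycan aggrecan, had the smallest adjusted p of the named genes. It read 6.06, 5.95 and 6.36 on abdominal AngII arrays and was not detected on Sham arrays (4.64, 4.93 and 4.77), at least 2.15-fold higher. No mesenteric array detected it (4.20 to 4.44), so the difference of 1.29 ± 0.14 (adjusted p = 0.000107) rested on the abdominal arrays. Another probe of Acan gave 0.48, which did not pass. Postn, the matricellular protein periostin, was likewise not detected in mesenteric arteries and rose 1.70-fold in the abdominal aorta, with a difference of 0.79 (adjusted p = 0.00464). Srpx2, a secreted sushi-repeat protein, had 0.77, and Cthrc1, a secreted protein of activated fibroblasts, had 1.12 and was not detected on abdominal Sham arrays. The difference of Cthrc1 did not pass without BA1, BA3 or any 1 of the abdominal Sham arrays (0.0563 to 0.125).

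Col14a1, a collagen that binds to fibril surfaces, showed little spread. Abdominal AngII arrays had 10.70, 10.63 and 10.63 against 9.95, 9.96 and 10.01, while mesenteric AngII arrays ran from 11.02 to 11.29, with a median of 11.11, against 11, 11.01, 11.17, 11.22 and 11.34. Its AngII level in the abdominal aorta stayed below every mesenteric array, and the difference was 0.70 ± 0.12 (adjusted p = 0.00496). Col15a1, a collagen of basement membrane zones, had 0.81 (adjusted p = 0.00788). Col1a1, the main chain of collagen I, rose 1.94-fold in the abdominal aorta, and its difference of 0.74 (adjusted p = 0.0361) did not pass in 10 of the 17 fits that left out 1 array (adjusted p from 0.0503 to 0.130).

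In the elastic fibre list, fibulin 2 (Fbln2) had a difference of 0.72 (adjusted p = 0.00981), the microfibril gene Mfap5 0.69 and Emilin2 0.82. Without BK1 none of these 3 passed (the lowest adjusted p was 0.0502, for Fbln2), and without BA1 neither Mfap5 (0.0945) nor Emilin2 (0.125) did, nor did Emilin2 without BA3 (0.0577). Fbln2 rose in the abdominal aorta by 0.43 and had a mesenteric effect of -0.30 (adjusted p = 0.0602). Timp1, an inhibitor of matrix metalloproteinases, read 11.91, 12.18 and 10.94 on abdominal AngII arrays against 9.94, 10.09 and 9.99, and 8.85 to 9.56 against 8.47 to 8.91 in mesenteric arteries. Its difference was 1.22 (adjusted p = 0.0263), and it did not pass without BA1 (0.117), BA3 (0.0878), BK1 (0.0764) or BK7 (0.0532). Plat, the tissue plasminogen activator, had 0.65 and passed without each array in turn. Mmp3, a stromelysin, had 0.74 and did not pass in 12 of the 17 such fits (0.0505 to 0.134), and Nid2, a nidogen of basement membranes, had 0.77 and did not pass in 13 (0.0557 to 0.184).

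Signalling genes differed singly, and for the counts that follow, 1.32% of all transcripts had a positive difference that passed. Of 29 Notch and Wnt genes the difference passed for 3, all positive: Sfrp4, a secreted Wnt antagonist, with 1.61 (adjusted p = 0.0197), Wnt2 with 1.18 and Wnt5a with 0.66. Sfrp4 read 9.19, 8.23 and 7.50 on abdominal AngII arrays against 6.87, 6.35 and 7.11, and its difference did not pass without BA1 (0.0777), BK1 (0.0536) or BK2 (0.0624). That of Wnt2 did not pass without BA1, BK1 or BK7 (0.0503 to 0.117), and that of Wnt5a did not in 13 of the 17 fits that left out 1 array (0.0527 to 0.129), while another Wnt5a probe gave 0.17. Esm1, a secreted product of endothelial tip cells, rose 5.04-fold in the abdominal aorta, with 10.15, 9.80 and 9.21 against 7.65, 7.33 and 7.17. In mesenteric arteries it ran from 6.11 to 7.76 against 5.73 to 6.53, an effect of 0.79 (adjusted p = 0.0689), and the difference was 1.55 (adjusted p = 0.0372), which did not pass in 10 of the 17 fits that left out 1 array (0.0531 to 0.158). Ednrb, the endothelin B receptor, was the vasoactive receptor that passed, with a difference of 1.0 (adjusted p = 0.0201), and 1 of 21 genes of that list did so. Its other probes gave 0.32 and 0.76 and did not pass, and the call was lost without BA1 (0.0733) or BK1 (0.0583). Of 30 NADPH oxidase and antioxidant genes 3 passed, namely the oxidase subunit Ncf4 (1.14), its regulator Rac2 (0.93) and the peroxidase Gpx7 (0.52). When 1 array was left out, Ncf4 did not pass in 12 of the 17 fits (up to 0.184), Rac2 in 13 (up to 0.179) and Gpx7 in 5 (up to 0.0840). Mup6, one of the near-identical major urinary protein genes whose probes may share transcripts, had 1.34 and was not detected in mesenteric arteries or on abdominal Sham arrays, where AngII was at least 2.07-fold higher. It did not pass in 12 of the 17 fits that left out 1 array (0.0515 to 0.125).

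In the opposite direction, genes of smooth muscle contraction leaned toward mesenteric arteries. All 24 measured contractile genes had a negative difference, with a median of -0.40, but it passed for 2 of them, against 0.525% of all transcripts with a negative difference. Over all 20585 transcripts the difference was positive for 9614. In mesenteric arteries 4 of the 24 rose (median effect 0.23), whereas in the abdominal aorta none rose and 1 fell (median -0.14). Among all transcripts 1.42% rose in mesenteric arteries and 1.46% fell in the abdominal aorta. In the thoracic aorta 6 fell, against 7.18% of all transcripts, with a median of -0.27. Neither of the 2 passed without any 1 of BA1, BA3, MK1, MK4 or the abdominal Sham arrays, and without BA7 the count was 5. Of the 17 fits that left out 1 array, Des did not pass in 10 (up to 0.105) and Mrvi1 in 8 (up to 0.163). In mesenteric arteries the mean log2 level of the list ran from 11.15 to 11.42 on AngII arrays and from 10.82 to 11.16 on Sham arrays, and in the abdominal aorta from 11.40 to 11.60 and from 11.60 to 11.69.

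Desmin (Des), the intermediate filament of muscle, read 10.71, 10.60 and 10.76 on abdominal AngII arrays against 10.79, 10.91 and 10.96. In mesenteric arteries the AngII arrays ran from 12.47 to 12.76, with a median of 12.56, all above the Sham arrays at 11.82, 12.10, 12.16, 12.25 and 12.34. Des rose in mesenteric arteries by 0.44 (adjusted p = 0.0180), and the difference was -0.64 ± 0.16 (adjusted p = 0.0376). Mrvi1, a target of cGMP-dependent kinase at the calcium store, had a difference of -0.58 (adjusted p = 0.0376) and rose in mesenteric arteries by 0.40 (adjusted p = 0.0182). Its other probe had a difference of -0.40 (adjusted p = 0.374) and a mesenteric effect of 0.03. Ppp1r12a, the targeting subunit of myosin phosphatase, fell in the abdominal aorta by 0.59 and had a difference of -0.67 (adjusted p = 0.0437), which did not pass in 12 of the 17 fits that left out 1 array (0.0513 to 0.179). Sln, sarcolipin, an inhibitor of the calcium pump, was not detected on abdominal arrays and rose in mesenteric arteries from 7.68 to 8.03 on Sham arrays to 8.24 to 8.71 on AngII arrays. Its difference was -0.66 (adjusted p = 0.0135), and without BA1 the adjusted p was 0.0543.

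Scube3, a secreted protein with EGF-like repeats, changed in opposite directions, and both single effects passed. It read 8.29, 8.33 and 8.57 on abdominal AngII arrays, all below the Sham arrays at 9.02, 8.95 and 8.98. On mesenteric AngII arrays it ran from 6.48 to 7.10, with a median of 6.59, all above the Sham arrays at 5.87, 5.95, 5.99, 6.18 and 6.44. Scube3 fell by 0.59 in the abdominal aorta (adjusted p = 0.0207) and rose by 0.60 in mesenteric arteries (adjusted p = 0.00670), and the difference was -1.19 ± 0.18 (adjusted p = 0.00224). The difference passed without each of the 17 arrays in turn and for 2 of 3 probes. In the thoracic aorta Scube3 fell by 1.26 (adjusted p = 3.83e-06).

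Afap1, Fbxl22 and Herc1 rose in mesenteric arteries with no abdominal effect that passed. Afap1, an actin filament-associated protein, ran from 6.67 to 7.19 on mesenteric AngII arrays, with a median of 7.0, above the Sham arrays at 5.80, 5.95, 6.08, 6.08 and 6.37. Its abdominal arrays overlapped (7.01, 7.45 and 7.29 against 7.52, 7.34 and 7.04), and the difference was -0.96 (adjusted p = 0.0153). It no longer passed without BA1 (adjusted p = 0.0788) or BK1 (0.0654). The other Afap1 probe had a difference of -0.26 (adjusted p = 0.425) and a mesenteric effect of 0.16. Fbxl22, an F-box protein known from muscle, rose 1.69-fold in mesenteric arteries (adjusted p = 0.000396) and had a difference of -0.80 (adjusted p = 0.00842). Herc1, a giant ubiquitin ligase, rose by 0.76 there and had a difference of -0.94 (adjusted p = 0.0118). Without BK1 its adjusted p was 0.0518, and its other probes gave 0.06 and -0.27 and did not pass. The Herc1 and Fbxl22 levels were close, with mesenteric medians of 8.96 and 8.95 on AngII arrays and 8.13 and 8.11 on Sham arrays. Whether both probes read separate transcripts was not tested.

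**Figure D4:**
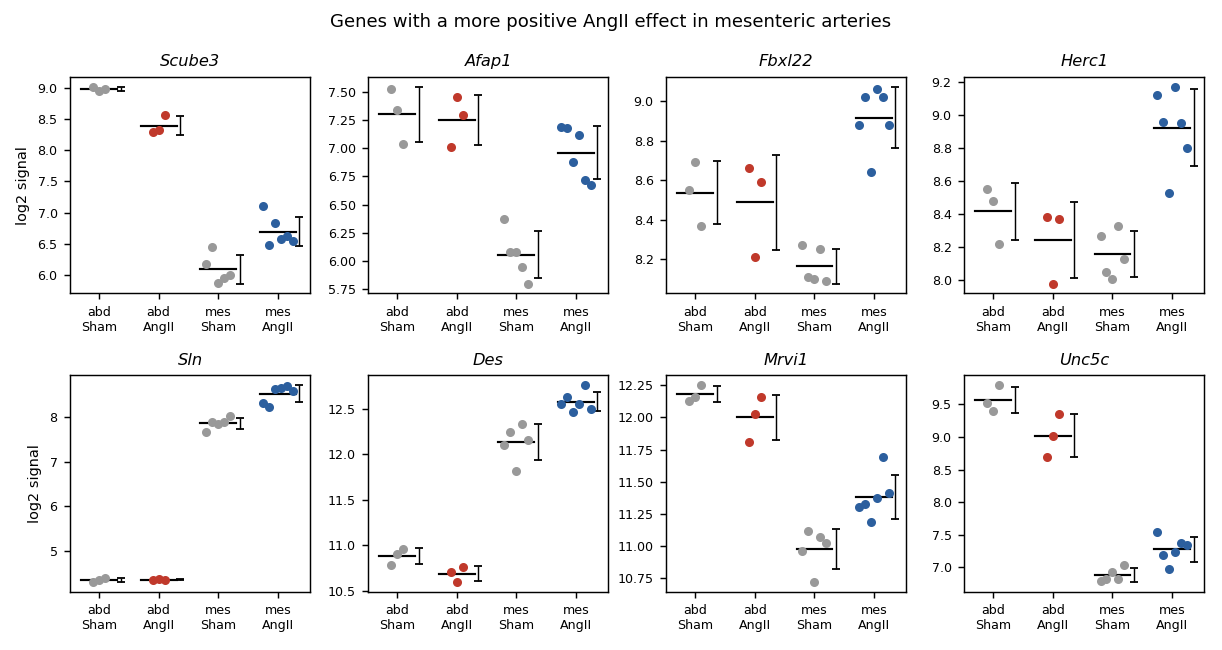
Log2 signal of 8 genes with a negative difference on every abdominal (abd) and mesenteric (mes) array; each point is 1 array, lines are group means, bars are 1 SD, and the y axes differ. The 6 mesenteric AngII arrays lie above the 5 Sham arrays for Scube3, Afap1, Fbxl22, Herc1, Sln, Des and Mrvi1.

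Other large negative differences belonged to genes that were low or lower after AngII in the abdominal aorta. Unc5c, a netrin receptor, fell there by 0.55 and had a difference of -0.95 (adjusted p = 0.0104), with 0.0550 without BA1, and another probe gave 0.05. Ppm1l, a protein phosphatase, had -0.82, Stbd1, a glycogen-binding protein, had -0.78 and did not pass in 11 of the 17 fits that left out 1 array (0.0508 to 0.167), and Vwc2, a secreted antagonist of bone morphogenetic proteins that no mesenteric array detected, had -0.74. Mybpc2, a myosin-binding protein of fast skeletal muscle, had -1.47 (adjusted p = 0.0244), but BK1, the array rich in skeletal muscle transcripts, carried 7.37 against 5.59 and 5.71 on the other Sham arrays. Without BK1 the value was -0.90 (adjusted p = 0.0118), and it did not pass without BA1 (0.0543) or BA3 (0.0508). Mybpc2 was not detected on the AngII arrays, at least 2.26-fold lower than the mean of all abdominal Sham arrays. That mean includes BK1, and no bound was computed without it. Slc5a3, Corin and Asxl3, with -0.98, -0.79 and -0.73, were not detected on the abdominal AngII arrays, where AngII was at least 1.23-fold, 1.04-fold and 1.32-fold lower. The abdominal effect of Slc5a3 had an adjusted p of 0.0725, and those of Corin and Asxl3 had 0.00646 and 0.00734. None of the 3 differences passed without BA1, BA3 or BK1 (0.0507 to 0.0962), nor did that of Corin without BK7 or that of Slc5a3 without BK2.

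None of the genes discussed for hypertension and named for that reason gave a difference that passed. Sphk1, which makes sphingosine-1-phosphate, rose in both vessels: abdominal arrays had 8.18, 8.06 and 7.78 against 7.09, 6.97 and 7.09, and mesenteric AngII arrays ran from 7.56 to 8.30 against 7.04 to 7.47. The effects were 0.95 and 0.64, and their difference of 0.32 ± 0.20 did not pass (adjusted p = 0.480). Its relative Sphk2 had -0.09, the receptor gene S1pr2 had 0.18, and none of 20 genes of this pathway passed. Over all transcripts 1.85% passed.

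For the soluble guanylate cyclase subunits, which sense nitric oxide, the differences were -0.61 ± 0.22 for Gucy1a1 (adjusted p = 0.156) and -0.60 ± 0.20 for Gucy1b1 (adjusted p = 0.128). Gucy1a1 fell by 0.65 in the abdominal aorta (adjusted p = 0.0310). Cnnm2, a magnesium transport gene, rose by 0.65 in mesenteric arteries (adjusted p = 0.00663), had an abdominal effect of 0.34 (adjusted p = 0.236), and a difference of -0.31 (adjusted p = 0.475). Mfap4, a microfibril glycoprotein, rose in both vessels, by 0.62 and 0.42, with a difference of 0.20. The AngII receptor genes Agtr1a and Agtr1b had 0.49 ± 0.14 (adjusted p = 0.0833) and -0.37 ± 0.22 (adjusted p = 0.455). The oxidase Nox4 had -0.60, the secreted protein Srpx 0.29, the cadherin Cdh13 0.22 and the superoxide dismutase Sod1 0.15 (2 other probes gave -0.29 and -0.27), with adjusted p from 0.170 to 0.646. None of 25 genes at published blood pressure loci passed, against 1.85% of all transcripts.

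Lists of other tissues also moved between the vessels, without any member of the next 4 lists passing, against 1.85% of all transcripts. Brown adipocyte markers had a median difference of 0.67 over 13 genes, and their mean level was 7.88, 7.25 and 5.66 on the abdominal AngII arrays against 6.00, 6.24 and 6.21 on Sham arrays. White adipocyte markers had 0.39 over 16 genes. Skeletal and heart muscle markers had -0.90 over 10 genes, with the mean level at 8.83 on BK1 and between 5.35 and 5.64 on the other 5 abdominal arrays. Pancreas and gut epithelium markers had -0.76 over 19 genes. With the brown adipocyte mean as a covariate 91 transcripts passed, with 8 of 24 mitotic genes among them. With the macrophage marker mean as a covariate, added after seeing the data, 1 transcript passed in limma, that of Acan, and 1384 had an unadjusted p under 0.05. The median difference of the mitosis list was 0.99 in that fit, that of the chemokine list 0.22 and that of the contractile list -0.27. The macrophage mean itself differed between the groups compared, and the part of these cell types in the results was not tested.

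**Figure D5:**
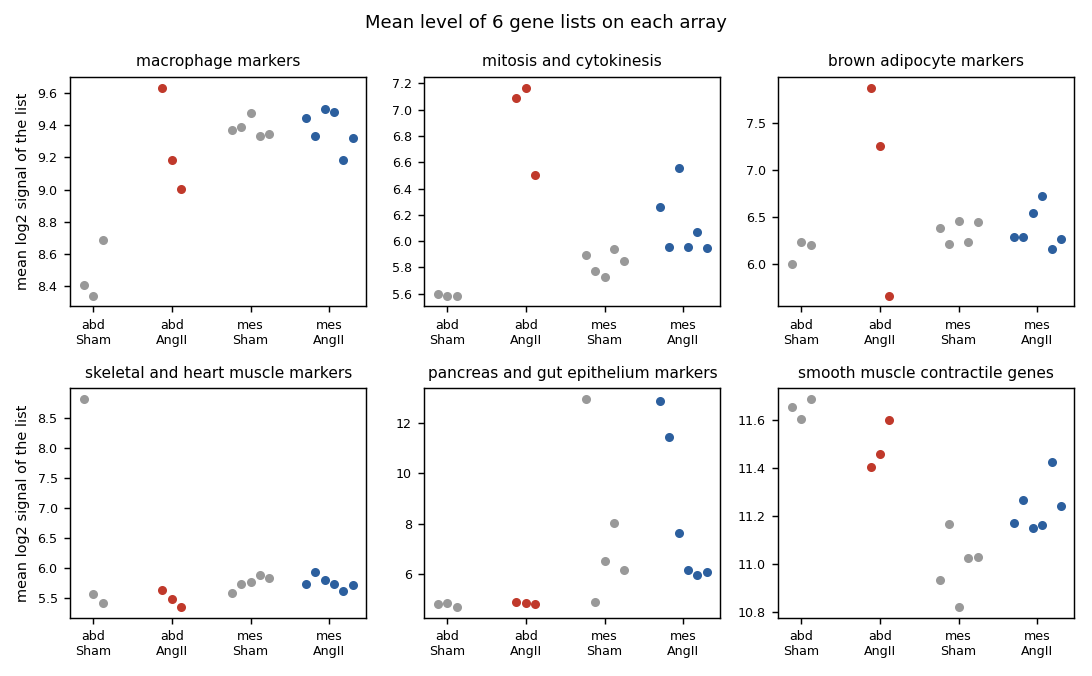
Mean log2 signal of 6 gene lists on each abdominal (abd) and mesenteric (mes) array, 1 point per array, with different y axes. The macrophage list is at 9.0 to 9.63 on abdominal AngII arrays and 8.34 to 8.69 on Sham arrays, the skeletal muscle list is high on 1 abdominal Sham array (8.83), and the pancreas list is high on 3 mesenteric arrays.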

How the data were processed

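RNA was measured on Illumina WG-6 v2.0 BeadChips. The deposited intensity values had no normalization between arrays and, since some lie below 0, a background already subtracted, and each has a deposited detection p-value. The authors also deposited log2 values after robust spline normalization, and their processing notes name lumi and limma under R 3.0.2. Intensities of all 23 arrays were converted here with neqc (limma 3.58.1, R 4.3.3, offset 16). Of 45281 transcripts, 20585 were tested, those with detection p-values below 0.01 on 3 or more arrays, and two-sided moderated tests had 17 residual degrees of freedom. Arrays give no read depth, so precision rests on how many arrays a group has and how far its signal stands over background.

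Probe symbols came from the platform annotation, where 34885 probes have 1 symbol, 18 several and 10378 none, and each gene was represented by its probe with the highest mean signal (10955 genes). Intensity columns name vessel and treatment but no single sample, so replicates were not paired. Gene lists (41, with 810 of 1110 entries measured) and named genes were chosen with earlier results of these data known, and the lists get no test of their own. Named were the 12 largest positive and negative differences that passed, up to 4 passed members of each list (or 2 unpassed ones where none passed, of which many were left unnamed here), up to 8 genes whose mesenteric or opposite single effects passed, 13 genes discussed for hypertension, and Thy1. The fit was run on simulated data in which arrays were independent and only the abdominal AngII group had an effect. Those data did not model shared mice or single arrays rich in other tissues. Kcnma1, Igf2 and Cma1 came from the lists. Alternatives changed the source of values, background correction, normalization, filter, variance model and arrays. Promoters came from RefSeq, and plots from matplotlib 3.10.9.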

Additional observations from a re-analysis of the deposited data

Results flagged for a closer look

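The test of the difference itself passed for 62 named genes, 46 with a positive and 16 with a negative abdominal minus mesenteric effect (log2). Among them, Il1b, Acan, Postn, Mup6 and Vwc2 were detected on no mesenteric array and Sln on no abdominal array. Their effect in that vessel was not measurable, so their values rest on the other vessel. Mitosis and DNA replication gave 1.33 for Cenpa, 0.93 for Kif23, 1.75 for Prc1, 1.67 for Cdk1, 1.74 for Pbk, 1.53 for Uhrf1 and 1.16 for Tk1. Chemokines, cytokines and macrophage genes gave 2.23 for Cxcl1, 2.06 for Il1b, 2.02 for Ccl7, 1.67 for Ccl5, 1.61 for Ccl9, 0.86 for Cx3cl1, 0.95 for Folr2, 1.09 for Fcgr3, 1.06 for C1qb, 0.99 for Lyz2, 1.86 for Wfdc17, 1.55 for S100a4, 2.46 for AA467197, 1.14 for Ncf4 and 0.93 for Rac2. Fibroblast and matrix genes gave 1.49 for Thy1, 0.68 for Cd248, 0.81 for Pdpn, 1.29 for Acan, 0.79 for Postn, 0.77 for Srpx2, 1.12 for Cthrc1, 0.70 for Col14a1, 0.81 for Col15a1, 0.74 for Col1a1, 0.72 for Fbln2, 0.69 for Mfap5, 0.82 for Emilin2, 0.77 for Nid2, 1.22 for Timp1, 0.65 for Plat and 0.74 for Mmp3. Signalling and other genes with a positive value gave 1.61 for Sfrp4, 1.18 for Wnt2, 0.66 for Wnt5a, 1.55 for Esm1, 1.0 for Ednrb, 0.52 for Gpx7 and 1.34 for Mup6. Muscle and calcium genes gave -0.64 for Des, -0.58 for Mrvi1, -0.67 for Ppp1r12a, -0.66 for Sln and -1.47 for Mybpc2. The remaining genes with a negative value gave -1.19 for Scube3, -0.96 for Afap1, -0.80 for Fbxl22, -0.94 for Herc1, -0.95 for Unc5c, -0.98 for Slc5a3, -0.82 for Ppm1l, -0.79 for Corin, -0.78 for Stbd1, -0.74 for Vwc2 and -0.73 for Asxl3. The genes were named partly for passing this test, so the values are listed as a description.

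Among 144 groups of 5 or 6 arrays checked for an array far from the others of its group, 4 held one, and chance gives about 5% of groups. Cx3cl1 read 8.52 on the mesenteric AngII array MA4, against 8.82 to 8.98 on the others. Kif23 read 10.47 on the mesenteric Sham array MK7, against 10.72 to 10.79. Srpx read 9.17 on MA6, against 9.35 to 9.43, and Thy1 read 10.03 on MA3, against 9.41 to 9.64 on the other mesenteric AngII arrays.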

How the results depend on the processing

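The abdominal groups held 3 arrays each, and low signals near background hold only bounds. The count of 380 was 142 in the authors' values, 236 with no filter, 101 without the muscle-rich array and 91 with the brown adipocyte mean as covariate. Without the 4 arrays rich in other tissues it was 57, and with the macrophage mean as covariate 1 (both added after seeing the data). Leaving out 1 array gave 77 to 740. Cyclic loess, no background correction, normalization within each vessel, the 17 arrays alone, detection on every array, a trended and robust variance, array weights, the column number as a random block and leaving out the pancreas-rich arrays gave 263 to 538. No named gene that passed changed sign in any refit, although 1 other probe each of Herc1 and Unc5c gave 0.056 and 0.053. Each of Ccl7, Fbln2, Lyz2, Ppm1l, Ppp1r12a and Vwc2 had another probe that kept the sign but did not pass. Sphk2 was at 0.063 with the macrophage covariate, and 2 other probes of Sod1 gave -0.29 and -0.27. The causes of these shifts were not tested.

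For the abdominal effect (979) the count was 385 in the authors' values, 225 in a separate fit, 563 without the muscle-rich array, 346 with the brown adipocyte covariate, 509 without the 4 arrays and 13 with the macrophage covariate, and 308 to 1313 when 1 array was left out. For the mesenteric effect (391) it was 958 in the authors' values, 648 with cyclic loess, 170 with 17 arrays, 70 in a separate fit, 156 without the pancreas-rich arrays and 153 without the 4 arrays, and 148 to 433 when 1 was left out. The thoracic effect (2951) gave 4703 with array weights and 411 with the macrophage covariate.

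Replicate numbers in the titles were not used to pair the samples. Deviations of same-numbered AngII and Sham arrays correlated between -0.56 and 0.86 over 8 pairs, which cannot show whether arrays were paired. For abdominal and mesenteric columns with the same number, correlations were 0.011 to 0.121 over 5 pairs. The consensus correlation within column number and treatment was 0.12. A replicate block in the authors' values gave 146 transcripts for the difference, 52.1% of them positive, with 533 for the abdominal and 1133 for the mesenteric effect.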

Other observations

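The Sham arrays of the 2 vessels already differed for many of these genes. Of the 190 named genes with a positive difference, 170 (89.5%) had a higher mean on mesenteric than on abdominal Sham arrays, by a median of 0.76, against 47.1% of all 10955 genes. On the AngII arrays the median gap of the same genes was -0.17. Of the 58 with a negative difference, 13 (22.4%) were higher on mesenteric Sham arrays, with median gaps of -0.51 on Sham and 0.10 on AngII arrays. These levels use the same arrays as the difference, so they describe it and do not test it.

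Several groups of vessel genes gave no difference that passed, where 1.85% of all transcripts did so. For lists of this size, a count of none lies near that share. None of 31 ribosomal protein genes (median difference -0.07), 38 respiratory chain subunits (0.10), 21 Hox genes (-0.01), 15 clock genes (-0.04), 25 heat shock and cochaperone genes (-0.23), 13 potassium channels (-0.20) or 25 genes of TGF-beta and BMP signalling (0.01) passed. Igf2, a fetal growth factor, fell by 0.91 in the abdominal aorta (adjusted p = 0.000199) and had a mesenteric effect of -0.32, with a difference of -0.60 (adjusted p = 0.0583). Cma1, a mast cell chymase that can form AngII, rose by 1.32 in the abdominal aorta (adjusted p = 0.0182), with 7.92, 6.68 and 6.65 on AngII arrays against 5.64, 6.24 and 5.41, and its difference of 1.49 did not pass (adjusted p = 0.0556). Kcnma1, the pore of the large-conductance potassium channel, had a difference of -0.69 (adjusted p = 0.0690).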
